A study of Mus musculus with 6 samples.

Results

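The 10 genes described here encode receptor tyrosine kinases of 4 families that are studied in glioblastoma: the EGF receptor and its relatives (Egfr, Erbb2, Erbb3, Erbb4), the FGF receptors (Fgfr1, Fgfr2, Fgfr3), the PDGF receptors (Pdgfra, Pdgfrb) and the HGF receptor (Met). They were chosen by gene name, and each matched 1 of the 49585 genes in the deposited tables. RNA was sequenced from mGB2, a mouse glioblastoma cell line whose labels call its cells glioblastoma stem cells. There were 3 libraries from cells with a knockout of Bcat1 (Bcat1-KO) and 3 from control cells, abbreviated NT in the series design. All 6 libraries came from untreated cells of that line that were attached to a matrix coating and fed a stem cell medium holding N2, B27, EGF and FGF. The cells were harvested when confluent. The ligands of 2 of the 4 receptor families were thus supplied to both groups. The labels do not say how the knockout was made or how many clones each group holds.

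Receptor tyrosine kinases span the cell membrane. A ligand brings 2 receptors together, the kinase domains then phosphorylate each other, and adaptors bound to the phosphorylated tails pass the signal to the RAS, ERK and PI3K pathways. In glioblastoma, EGFR, PDGFRA and MET are known for gene amplification, often with their neighbours on the chromosome, and FGFR3 for fusion to the nearby gene TACC3. In the normal brain, Pdgfra marks oligodendrocyte precursor cells, Pdgfrb marks pericytes and other mural cells, and Fgfr3 is found in radial glia and astrocytes.

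The libraries held 29543157 to 37800648 strand-matched gene counts, so that 3 counts correspond to 0.0794 to 0.102 CPM (counts scaled to a common library size) in 1 library. Bcat1 transcripts were present in both groups, at 168 ± 11.5 CPM in knockout cells against 223 ± 9.26 CPM in control cells (SD, n = 3 each), and gene counts cannot show an edited exon. The stem cell marker genes Sox2 and Nes, named after their values were seen, had 336 and 241 CPM in knockout cells and 136 and 258 CPM in control cells. Markers of microglia summed to at most 0.172 CPM and those of endothelial cells to at most 0.858 CPM in any library. Bcat1-KO replicate 1 differed most from the other knockout libraries, with a chi-square per gene of 31.1 and 32.5 against 12.4 between the other 2. Nothing in the labels says that replicates were separate cultures, so a p-value here reflects how much these libraries vary, which may be technical.

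Promoters of 3 genes of the EGF receptor family are shown because their transcripts differed: Erbb4 reads were found in knockout libraries and in none of the controls, Erbb2 was lower in the knockout and Egfr was the most abundant of the family. The sequences are from RefSeq in build GRCm38.p6 (mm10) and run 5′ to 3′ on the gene's strand. Each ends at the base before the gene's first base in the deposited tables, which leaves 236 bases for Erbb2 and 250 for the others. Capitals mark a match on either strand to the GC box (GGGCGG), to the TATA box (TATAAA) or to the E-box of Myc factors (CACGTG).
Erbb4 (chr1:69108060-69108309, minus strand): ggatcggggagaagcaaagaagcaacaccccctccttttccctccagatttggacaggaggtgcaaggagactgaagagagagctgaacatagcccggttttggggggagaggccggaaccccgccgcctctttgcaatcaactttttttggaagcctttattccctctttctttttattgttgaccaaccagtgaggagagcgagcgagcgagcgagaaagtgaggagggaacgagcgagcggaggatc
Erbb2 (chr11:98412234-98412469, plus strand): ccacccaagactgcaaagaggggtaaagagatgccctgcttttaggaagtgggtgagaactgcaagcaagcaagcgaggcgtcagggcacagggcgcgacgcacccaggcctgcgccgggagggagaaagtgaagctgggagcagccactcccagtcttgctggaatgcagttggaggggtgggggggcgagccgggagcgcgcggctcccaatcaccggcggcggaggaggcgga
Egfr (chr11:16751953-16752202, plus strand): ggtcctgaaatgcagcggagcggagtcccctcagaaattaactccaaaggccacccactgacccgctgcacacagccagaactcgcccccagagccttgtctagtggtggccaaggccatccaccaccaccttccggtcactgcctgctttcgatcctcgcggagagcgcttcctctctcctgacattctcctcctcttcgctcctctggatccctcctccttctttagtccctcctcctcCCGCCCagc
The Egfr stretch has 1 GC box, beside the gene's start, and no other match. The Erbb4 and Erbb2 stretches hold none of the 3 motifs. Among 32851 promoters of the table, the 250 bases before the start hold a GC box in 32.7%, a TATA box in 12.4% and this E-box in 6.02%. The G and C content of the stretches was 54.0% for Erbb4, 65.7% for Erbb2 and 60.8% for Egfr, against a median of 52.4% over all promoters.

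Of the 10 receptor genes, 8 were abundant enough to be tested, and 2 of these rose in the knockout while 4 fell (adjusted p under 0.05 by edgeR's quasi-likelihood method). Erbb4 and Fgfr3 rose, and Pdgfrb, Fgfr2, Erbb2 and Fgfr1 fell. Erbb4 had no counts in the controls and entered the test through its knockout libraries alone. Egfr and Pdgfra did not pass the test, and Erbb3 and Met had too few counts to be tested. Change was common in this comparison: 62.3% of the 14020 tested genes passed the same test, 32.0% higher and 30.3% lower, and the share among the receptors, 6 of 8, is read against that. The libraries of the groups did not overlap for those same 6, against 67.7% of all tested genes. The median log2 fold change was -0.24 over the 8 tested receptors and 0.01 over all tested genes. Decreases of at least 2-fold were called for 3 of the 8 (Pdgfrb, Fgfr2 and Erbb2), against 9.43% of all tested genes, and an increase of that size for 1 (Erbb4), against 9.76%. RNA was measured in bulk, so fewer cells of a type and less RNA per cell cannot be told apart.

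**Figure D1:**
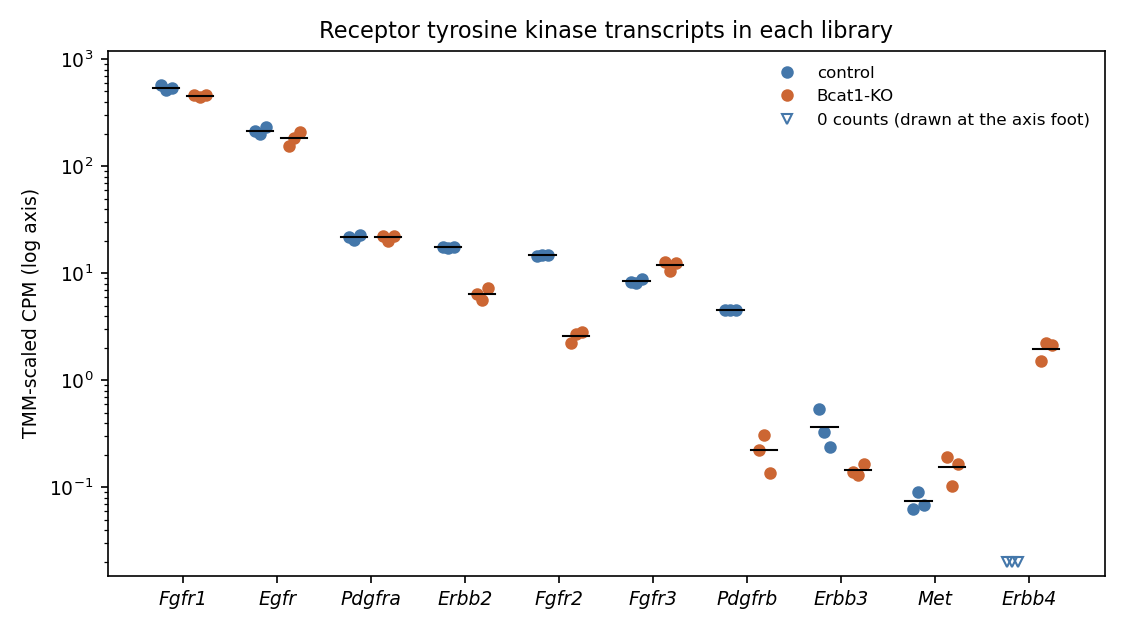
TMM-scaled CPM (log axis) of the 10 receptor genes in each of 3 control and 3 Bcat1-KO libraries, with points for libraries and bars for group means. Fgfr1 and Egfr lie above 150 CPM in every library, Pdgfrb, Fgfr2 and Erbb2 are lower in every knockout library than in every control library, and Erbb4 has 0 counts in all 3 control libraries.

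Levels between genes were compared as RPKM, the TMM-scaled CPM divided by exonic length in kilobases. Fgfr1 was the most abundant receptor transcript per length in both groups, with 54.9 ± 2.51 RPKM in the control and 45.9 ± 1.08 RPKM in the knockout. Egfr was second in both, with 19.0 ± 1.40 and 16.1 ± 2.47 RPKM. Below these 2 the order differed. In the control it ran Erbb2 (3.35 RPKM), Pdgfra (2.17), Fgfr2 (1.43), Fgfr3 (1.18), Pdgfrb (0.828), Erbb3 (0.0617), Met (0.00967) and Erbb4 at 0, and no neighbours in this order overlapped between their 3 libraries. In the knockout it ran Pdgfra (2.16 RPKM), Fgfr3 (1.66), Erbb2 (1.24), Fgfr2 (0.253), Erbb4 (0.159), Pdgfrb (0.0408), Erbb3 (0.0240) and Met (0.0201). There, Pdgfrb overlapped with Erbb3 and Erbb3 with Met, and the other neighbours did not.

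Fgfr1 and Egfr together held 88.9% to 89.4% of the summed receptor RPKM in the control libraries and 91.4% to 92.3% in the knockout libraries. Fgfr1 alone held 66.2% ± 1.42 in the control and 68.0% ± 2.54 in the knockout, and Egfr 22.9% ± 1.30 and 23.8% ± 2.79 (SD, n = 3 each), so neither share differed by more than 1 SD of the knockout libraries. The sum over the 10 receptors was 82.8 ± 3.27 RPKM in the control and 67.6 ± 2.95 RPKM in the knockout, and the groups did not overlap (two-sided exact permutation p = 0.1, the smallest that 3 against 3 samples allow). This was 1 of 7 such sums and ratios tested, and the adjusted value was 0.117. Of the same sum over all 10 receptors, Erbb2 held 4.05% in the control and 1.83% in the knockout. Pdgfra held 2.62% and 3.19% of it. Its own level was nearly the same in both groups (2.17 and 2.16 RPKM), while the sum was lower in the knockout.

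**Figure D2:**
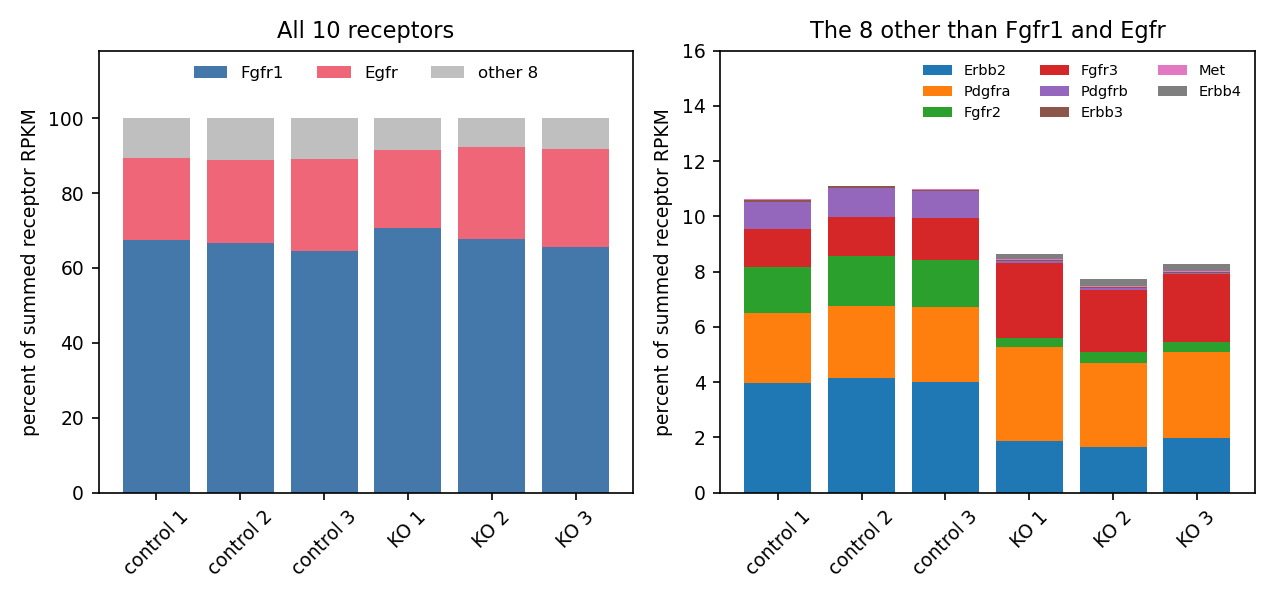
Percent of the summed RPKM of the 10 receptor genes in each library, with Fgfr1, Egfr and the other 8 on the left and those 8 enlarged on the right. Fgfr1 and Egfr fill 88.9% to 92.3% of each bar, and the segments of Erbb2, Fgfr2 and Pdgfrb are narrower in the knockout libraries.

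Egfr encodes the receptor for EGF and TGF-alpha (ENSMUSG00000020122.16, chromosome 11 from 16752203 to 16918158 in mm10). It had 212, 200.2 and 232 CPM in the control libraries and 154, 184 and 210.2 CPM in the knockout libraries. Knockout replicates 1 and 2 lay below all controls, while replicate 3 lay among them, so the groups overlapped. The log2 fold change was -0.23 (SE 0.10) and did not pass (edgeR adjusted p = 0.0685). The call depended on the setting: without Bcat1-KO replicate 3 the change was -0.36 (edgeR adjusted p = 0.00673), and without replicate 1 it was -0.14 (edgeR adjusted p = 0.116). Genes around Egfr went the other way, with a median log2 fold change of 0.39 over the 51 tested genes centred on it, and relative to that median Egfr was at -0.62. Of the 10 nearest tested genes, 6 were higher and 0 lower. Such counts, here and for the receptors below, are read against 32.0% higher and 30.3% lower over all tested genes. Sec61g, which is often amplified with EGFR in glioblastoma, had 49.3 CPM in control cells and 57.1 CPM in knockout cells (log2 fold change 0.21, edgeR adjusted p = 0.11).

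Erbb2 encodes a receptor that binds no known ligand itself and acts as the partner of the others (ENSMUSG00000062312.5, chromosome 11 from 98412470 to 98437716). It had 17.6, 17.2 and 17.6 CPM in control cells and 6.37, 5.67 and 7.29 CPM in knockout cells. All knockout libraries lay well below all controls. Its log2 fold change was -1.44 (SE 0.11, edgeR adjusted p = 5.16e-07), a 2.71-fold lower level. Its neighbours did not follow: 4 of the 10 closest ones tested rose and 0 fell, their median was 0.06 and they ranged from -0.09 to 0.45. Those neighbours include Stard3, Pgap3 and Mien1, which are known to be co-amplified with ERBB2 in human cancers. Egfr RPKM was 5.66 ± 0.368 times that of Erbb2 in the control and 13.1 ± 1.90 times in the knockout, without overlap (two-sided exact permutation p = 0.1, the smallest possible, adjusted 0.117).

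Erbb4 encodes a neuregulin receptor (ENSMUSG00000062209.15, chromosome 1 from 68032186 to 69108059). Its control libraries had 0 counts each, and its knockout libraries had 55, 86 and 78 counts, or 1.52, 2.24 and 2.15 CPM. Every knockout library thus held Erbb4 reads and no control library did. Taking 3 counts for the 3 controls together as the floor, it was at least 61.5-fold higher in the knockout (edgeR adjusted p = 1.41e-06). With 0 control counts, Erbb4 passed the expression filter through its knockout libraries alone. Its p-value therefore depends on the group in which it was high and is no separate evidence. Floors cover counting error only. The level remained low per length, at 0.159 ± 0.0314 RPKM, and in the knockout Erbb2 RPKM was 7.99 ± 1.95 times that of Erbb4. Of the 10 tested genes nearest to Erbb4, 5 were higher and 1 lower, with a median of 0.39. The median of the 51 tested genes around Erbb4 was 0.04. Ikzf2, the next tested gene on 1 side of Erbb4, rose from 0.372 to 16.1 CPM.

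Erbb3 encodes the family member with a weak kinase that signals through its partners (ENSMUSG00000018166.8, chromosome 10 from 128567523 to 128589652). It had 17, 11 and 7 counts in the control libraries and 5, 5 and 6 in the knockout libraries, too few to enter the test. The groups did not overlap, at 0.241 to 0.541 CPM in control cells and 0.130 to 0.165 CPM in knockout cells. The ratio of summed levels, knockout over control, was 0.386 with an exact 95% interval of 0.1996 to 0.716, which covers counting error only. With no filter on low counts, edgeR gave a log2 fold change of -1.36 (adjusted p = 0.0204), and DESeq2 gave -1.37 (adjusted p = 0.0967). Of its 10 nearest tested genes 8 were lower and 0 higher, with a median of -0.38. All 674 tested genes of chromosome 10 had a median of -0.27. Sox10, a factor of the oligodendrocyte and Schwann cell lineages in which Erbb3 is usually abundant, had 1 count over the knockout libraries and 0 over the controls.

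Fgfr1 is the main FGF receptor of neural stem cells (ENSMUSG00000031565.18, chromosome 8 from 25513654 to 25575718). It had 569, 520.4 and 536 CPM in control cells and 459, 441 and 459.9 CPM in knockout cells. The knockout libraries all lay below the controls, by a small margin. Fgfr1 changed by a log2 value of -0.26 (SE 0.07, edgeR adjusted p = 0.00653). The 51 tested genes centred on Fgfr1 had a median of -0.22 and all 779 tested genes of chromosome 8 a median of -0.37, and relative to the 51-gene median Fgfr1 was at -0.04. Whether the change is one of the gene or of its region was not tested.

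Fgfr2 (ENSMUSG00000030849.18, chromosome 7 from 130162451 to 133123350) encodes a receptor whose splice forms respond to different FGFs, which gene counts cannot tell apart. It had 14.6, 14.8 and 14.8 CPM in control cells and 2.24, 2.73 and 2.86 CPM in knockout cells, and the 2 sets were far apart. Fgfr2 thus fell, with a log2 fold change of -2.49 (SE 0.13, edgeR adjusted p = 9.61e-09), a 5.64-fold lower level. The annotated gene is long because of 1 distant annotated end, and 3.04% of its exonic bases are shared with Ctbp2 on the same strand. The median of the 51 tested genes around it was 0.02. Of its 10 nearest tested genes 4 were higher and 4 lower.

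Fgfr3 (ENSMUSG00000054252.17, chromosome 5 from 33721674 to 33737068) had 8.36, 8.10 and 8.95 CPM in control cells and 12.7, 10.5 and 12.5 CPM in knockout cells. All knockout libraries lay above all controls. Fgfr3 rose, with a log2 fold change of 0.49 (SE 0.11, edgeR adjusted p = 0.00279). Its neighbours rose with it: 8 of the 10 closest ones tested rose and 0 fell, and their median was 0.64. Tacc3, its fusion partner in glioblastoma and a gene of the mitotic spindle, rose from 131 to 214 CPM, and Letm1, a mitochondrial membrane protein gene, from 30.1 to 49.6 CPM. Relative to the median of the 51 tested genes around it, which was 0.46, Fgfr3 was at 0.03.

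The FGF receptors therefore did not move alike. Fgfr3 RPKM was 0.829 ± 0.0400 times that of Fgfr2 in the control and 6.68 ± 1.35 times in the knockout, and Fgfr1 RPKM was 38.4 ± 2.07 and 184 ± 26.2 times that of Fgfr2. Neither ratio overlapped between groups (two-sided exact permutation p = 0.1 each, the smallest possible, adjusted 0.117). The ratio of Fgfr1 to Egfr was 2.90 ± 0.221 in the control and 2.89 ± 0.466 in the knockout, with overlap (two-sided exact permutation p = 1.0).

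**Figure D3:**
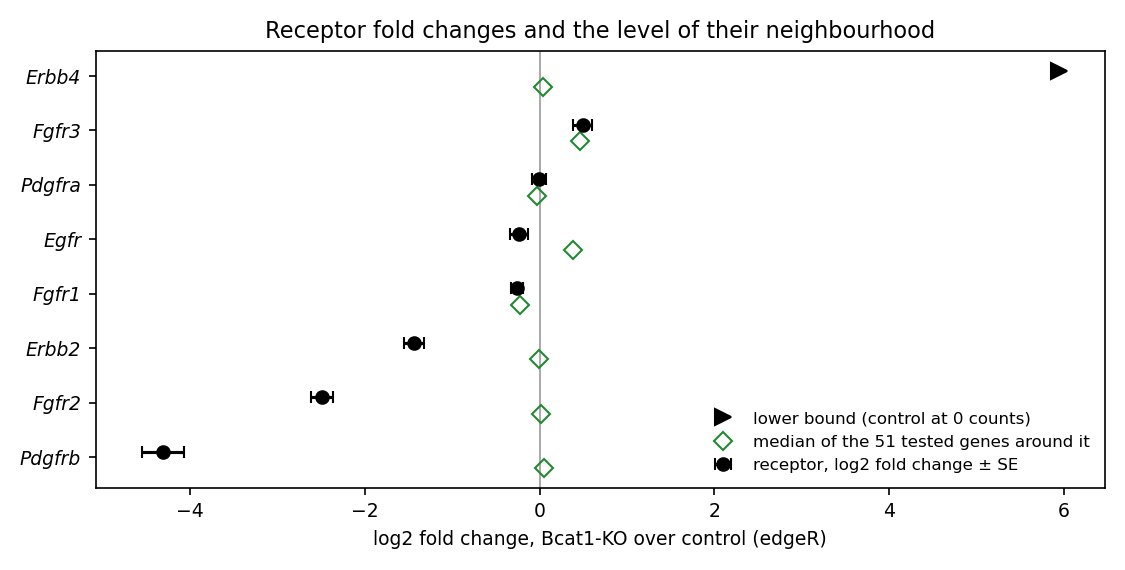
Log2 fold change of Bcat1-KO over control for the 8 tested receptors (black points with SE, and an arrowhead for Erbb4, whose control counts were 0, at its lower bound of 5.94), with the median of the 51 tested genes around each (green diamonds). The diamonds of Fgfr1 and Fgfr3 lie beside their points, whereas those of Erbb2, Fgfr2, Pdgfrb and Erbb4 lie near 0.

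Pdgfra encodes the PDGF receptor of oligodendrocyte precursors (ENSMUSG00000029231.15, chromosome 5 from 75152292 to 75198215). It had 21.9, 20.5 and 22.9 CPM in control cells and 22.6, 20.2 and 22.1 CPM in knockout cells, and these ranges overlapped almost wholly. The log2 fold change was -0.01 (SE 0.08, edgeR adjusted p = 0.933), and the sign of so small a value varied with the setting. Of the precursor cell markers, 5 of the 5 tested genes rose, against 32.0% of all tested genes, among them Cspg4, Olig1, Olig2 and Ptprz1. The summed level of that list was 1172 to 1433 CPM in knockout cells and 372 to 409 CPM in control cells, while Gpr17 was at 0 in all libraries and Sox10 had 1 count in all. Kit, the receptor for stem cell factor, which lies next to Pdgfra and is amplified with it in human glioblastoma, rose from 3.62 to 22.7 CPM (log2 fold change 2.64, edgeR adjusted p = 1.25e-08). Chic2, on the other side, rose from 41.3 to 56.7 CPM, and Lnx1 fell from 1.16 to 0.372 CPM. Among the 10 tested genes nearest to Pdgfra, 3 were higher and 4 lower, with a median of -0.21.

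Pdgfrb encodes the PDGF receptor of mural cells (ENSMUSG00000024620.11, chromosome 18 from 61045150 to 61085061). It had 142, 150 and 133 counts in the control libraries, or 4.52, 4.52 and 4.58 CPM, and 8, 12 and 5 counts in the knockout libraries, or 0.222, 0.312 and 0.138 CPM. All knockout libraries were far below the controls. Pdgfrb had a log2 fold change of -4.31 (SE 0.24, edgeR adjusted p = 2.61e-08), a 19.8-fold lower level. Pdgfra RPKM was 2.62 ± 0.127 times that of Pdgfrb in the control and 59.6 ± 26.5 times in the knockout (two-sided exact permutation p = 0.1, the smallest possible, adjusted 0.117). Among 10 neighbours 4 were lower and 0 higher, with a median of -0.29, and Cd74, the MHC class II invariant chain, fell from 3.07 to 0.172 CPM.

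Markers of the cell types that carry Pdgfrb in tissue are given beside it. Over all tested genes, 32.0% were higher and 30.3% lower. Of 8 mural cell markers 4 were tested, and Acta2 and Myh11 were lower while Notch3 and Vtn were higher. Rgs5 and Higd1b were at 0 in the knockout, Kcnj8 and Higd1b at 0 in the control, and Rgs5 had 5 counts over the control libraries. The summed level of the mural list was 83.0 to 107 CPM in knockout cells and 26.9 to 29.2 CPM in control cells, most of it Notch3. Of 7 fibroblast markers the 3 tested genes fell (Col1a1, Col3a1 and Col6a3), with a summed level of 15.0 to 17.1 CPM in knockout cells and 76.1 to 81.4 CPM in control cells. Col6a3 and the 4 untested markers Col1a2, Dcn, Lum and Fap had means under 1 CPM in both groups. Dcn had 45 counts over the knockout libraries and 7 over the controls, the opposite direction. Their part in the Pdgfrb result was not tested.

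Met encodes the HGF receptor (ENSMUSG00000009376.15, chromosome 6 from 17463800 to 17573980). It had 2, 3 and 2 counts in the control libraries and 7, 4 and 6 in the knockout libraries, under 0.2 CPM everywhere, and was not tested. The ratio of summed levels, knockout over control, was 2.05 with an exact 95% interval of 0.808 to 5.85, so a difference was not detectable at this depth, although the libraries of the groups did not overlap (0.0636 to 0.0904 CPM in the control, 0.104 to 0.194 CPM in the knockout). Its neighbours were higher for 8 of 10 tested genes and lower for 1. Cav2, a caveolin gene beside Met, rose from 4.72 to 26.6 CPM, and Cttnbp2, a neuronal cortactin-binding protein gene, from 1.09 to 18.0 CPM.

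**Figure D4:**
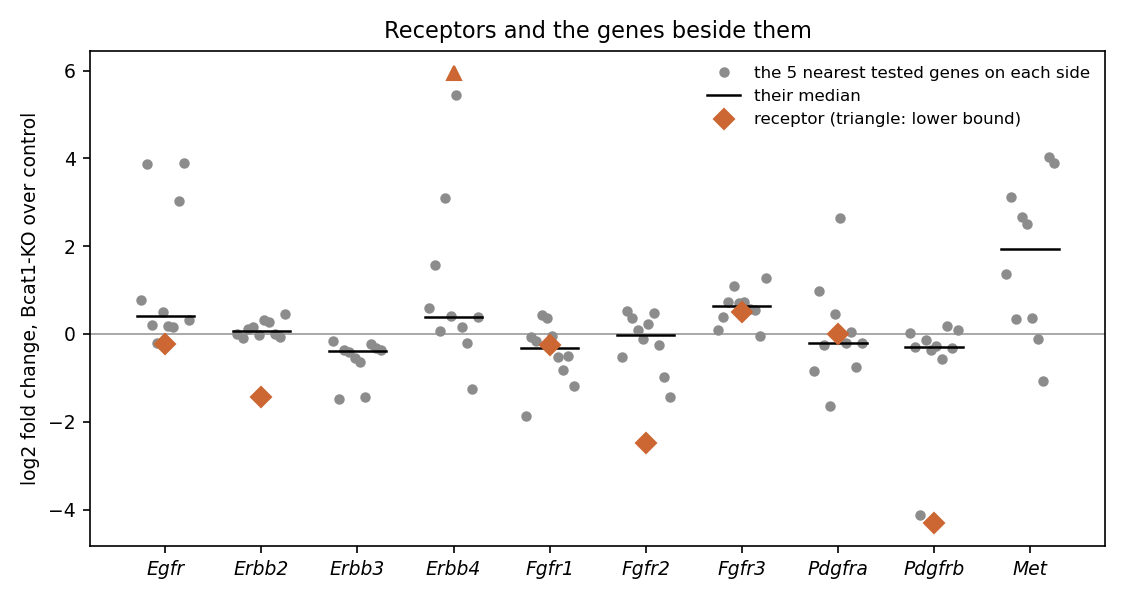
Log2 fold change of Bcat1-KO over control for each receptor (orange diamonds, with a triangle at the lower bound for Erbb4) and for the 5 nearest tested genes on each side (grey), with the median of those neighbours as a bar. Fgfr3 and Fgfr1 lie within the range of their neighbours, and Erbb2, Fgfr2, Pdgfrb and Egfr lie below all of theirs. For Egfr and Pdgfrb the margin is small, with Pdgfrb at -4.31 (SE 0.24) and its neighbour Cd74 at -4.13. Met and Erbb3 have no value of their own.

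The ligands made by the cells were few. Of 11 EGF family ligands, 3 were tested and all 3 were higher, with 0 lower. The 1.5-fold threshold left 1 of them higher and 0 lower. Counts in this and the later lists are read against 32.0% higher and 30.3% lower over all tested genes. Hbegf, the heparin-binding ligand of Egfr and Erbb4, rose from 22.6 ± 0.732 to 28.7 ± 2.01 CPM. Tgfa, a ligand of Egfr, rose from 1.66 ± 0.446 to 5.29 ± 0.530 CPM, and Egf itself from 1.12 ± 0.254 to 2.03 ± 0.424 CPM. The neuregulins, which bind Erbb3 and Erbb4, were under 1 CPM: Nrg3 and Nrg4 had 0 counts in all libraries, Nrg1 had 8 counts over the controls and 0 over the knockouts, and Nrg2 had 38 and 17. Areg, another Egfr ligand, had 16 and 36 counts and was not tested. Without any 1 library other than control replicate 3, and with no filter on low counts, 1 and 2 ligands of the list were lower, against 0 with all 6 libraries.

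Of 22 FGF genes, 8 were tested, with 4 higher and 3 lower. Fgf9, which acts through Fgfr2 and Fgfr3, had 6.39, 6.72 and 7.12 CPM in the control and 3 counts over the 3 knockout libraries, a ratio of control over knockout of 249 with an exact 95% interval of 84.8 to 1211. Fgf21, a hormone-like FGF that needs a klotho co-receptor, fell from 34.8 ± 3.06 to 8.75 ± 0.681 CPM (log2 fold change -1.99, edgeR adjusted p = 8.07e-09), and Fgf18 from 1.64 ± 0.489 to 0.474 ± 0.1796 CPM. Fgf1, a ligand of all FGF receptors, rose from 7.49 ± 0.239 to 16.4 ± 2.05 CPM. Fgf11, an intracellular family member that is not a receptor ligand, rose from 5.92 ± 0.492 to 20.8 ± 2.70 CPM.

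Of the 5 PDGF and HGF genes, 4 were tested, 3 higher and 1 lower, and the median change was 2.66 on the log2 scale. Pdgfc, a ligand of Pdgfra, rose from 0.186 ± 0.107 to 14.8 ± 1.87 CPM (log2 fold change 6.32, SE 0.24, edgeR adjusted p = 9.17e-10). Pdgfa, the main Pdgfra ligand, was already abundant and went from 36.7 ± 0.748 to 42.1 ± 3.27 CPM (log2 fold change 0.20, edgeR adjusted p = 0.0358). That call was lost in 9 of 17 alternatives, among them leaving out any 1 library except Bcat1-KO replicate 2 (edgeR adjusted p from 0.0688 to 0.159), which leaves 2 ligands higher. Pdgfb, which binds both PDGF receptors, fell from 0.984 ± 0.0745 to 0.136 ± 0.0573 CPM. Pdgfd, a ligand of Pdgfrb, had 1 count over the controls and 55 over the knockouts, a ratio of 46.5 with an exact 95% interval of 7.998 to 1868. Hgf, the ligand of Met, had 0 counts in the control and 1 in the knockout.

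Among 16 genes for inhibitors, shedding and turnover of the EGF receptor family, 15 were tested, 4 higher and 4 lower, with a median of 0.12. The 1.5-fold threshold left 0 higher and 0 lower. Lrig1, which promotes the degradation of these receptors, was the most abundant per length and rose from 246 ± 6.31 to 382 ± 21.2 CPM (log2 fold change 0.64, edgeR adjusted p = 8.07e-06). Its relative Lrig2 fell from 34.3 ± 0.678 to 21.5 ± 1.45 CPM. The sheddase Adam10 rose from 122 ± 7.68 to 180.2 ± 6.30 CPM and Ptpn1, a phosphatase, from 64.3 ± 4.43 to 88.9 ± 2.49 CPM. Rnf41, a ubiquitin ligase for Erbb3, fell from 74.0 ± 4.05 to 51.4 ± 5.65 CPM and Socs4 from 80.4 ± 4.10 to 55.2 ± 4.23 CPM. The ubiquitin ligase Cbl had 170.1 ± 11.2 CPM in control cells and 187 ± 16.1 CPM in knockout cells and did not pass (edgeR adjusted p = 0.153).

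Co-receptors and decoys were split, with 7 higher and 7 lower among 15 tested of 19, against 32.0% and 30.3% of all tested genes. Fgfrl1, an FGF receptor without a kinase domain, was the most abundant per length in the knockout and rose from 74.5 ± 4.73 to 181 ± 14.0 CPM (log2 fold change 1.28, edgeR adjusted p = 4.66e-08). Cd44, a hyaluronan receptor that can present ligands to Met and the EGF receptor family, rose from 15.2 ± 0.233 to 161 ± 10.5 CPM. The heparan sulfate proteoglycan Sdc4, an FGF co-receptor, went the other way, from 137 ± 7.15 to 12.9 ± 0.897 CPM (log2 fold change -3.41, edgeR adjusted p = 1.47e-11). Sdc3 rose from 190.1 ± 10.4 to 313 ± 25.5 CPM while Gpc1 fell from 252 ± 2.55 to 167 ± 13.0 CPM. Of the neuropilins, Nrp1 fell from 36.7 ± 3.14 to 13.6 ± 0.473 CPM and Nrp2 rose from 15.3 ± 1.61 to 41.1 ± 2.86 CPM, and of the FLRT proteins Flrt1 fell and Flrt3 rose.

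Of 24 adaptor and docking genes 21 were tested, with 10 higher, 6 lower and a median of 0.14. The count of 10 fell to 6 without Bcat1-KO replicate 3 and without any 1 of the control replicates. The cytoplasmic kinase gene Src rose from 7.84 ± 0.223 to 60.6 ± 4.65 CPM (log2 fold change 2.95, edgeR adjusted p = 8.47e-11), whereas Fyn, of the same kinase family and the most abundant gene of the list per length, fell from 553 ± 12.7 to 427 ± 25.9 CPM. Of the SHC adaptors, Shc1 fell from 123 ± 0.894 to 58.8 ± 5.13 CPM and Shc4 rose from 4.17 ± 0.445 to 17.1 ± 2.37 CPM. Of the docking proteins, Gab2 rose from 27.5 ± 1.90 to 77.3 ± 7.77 CPM and Gab1 fell from 53.3 ± 2.42 to 41.0 ± 2.55 CPM. Plcg2 fell from 3.19 to 1.22 CPM. Plcg1 rose from 262 ± 9.75 to 339.9 ± 7.58 CPM, and Ptpn11, a phosphatase that relays receptor signals, from 228 ± 7.10 to 263 ± 15.95 CPM.

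The RAS, ERK and PI3K core had 6 higher, 7 lower and 10 not called of 23 tested, with a median of -0.03. Over all tested genes 62.3% were called, so these counts lie near the background. Pik3r1, a regulatory subunit of PI3K, rose from 90.5 ± 5.44 to 202 ± 21.1 CPM (log2 fold change 1.16, edgeR adjusted p = 2.64e-07), and its relative Pik3r2 fell from 305 ± 11.1 to 202 ± 12.1 CPM. Braf, a kinase upstream of ERK, fell from 103 ± 4.46 to 77.7 ± 2.91 CPM. Nras and Akt1, the other abundant members, had log2 fold changes of -0.05 and -0.12 and did not pass (edgeR adjusted p = 0.568 and 0.147). The catalytic subunit gene Pik3cb rose from 16.4 to 23.7 CPM and its relative Pik3cd fell from 1.61 to 1.07 CPM. Against a 1.5-fold threshold 1 gene of the list was higher and 0 lower.

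Of 17 feedback and target genes of ERK, all tested, 11 were higher and 5 lower, with a median of 0.34. The shares over all tested genes were 32.0% higher and 30.3% lower. The ETS factor genes Etv5, Etv4 and Etv1 rose, Etv5 from 469 ± 22.0 to 731 ± 25.2 CPM, Etv4 from 93.7 ± 7.44 to 167 ± 8.06 CPM and Etv1 from 47.4 ± 0.572 to 88.7 ± 5.57 CPM. The ERK phosphatase gene Dusp6 rose from 187 ± 3.73 to 271 ± 20.9 CPM and the inhibitor gene Spred1 from 138 ± 9.06 to 242 ± 14.2 CPM. Spry2 rose from 177 ± 1.503 to 208 ± 10.5 CPM, whereas Spry1, of the same inhibitor family, fell from 276 ± 3.31 to 157 ± 8.86 CPM. Phlda1 fell from 121 ± 5.31 to 25.9 ± 2.56 CPM and Ier3 from 75.8 ± 4.01 to 30.8 ± 1.16 CPM. Against a 1.5-fold threshold 3 genes of the list were higher and 4 lower.

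**Figure D5:**
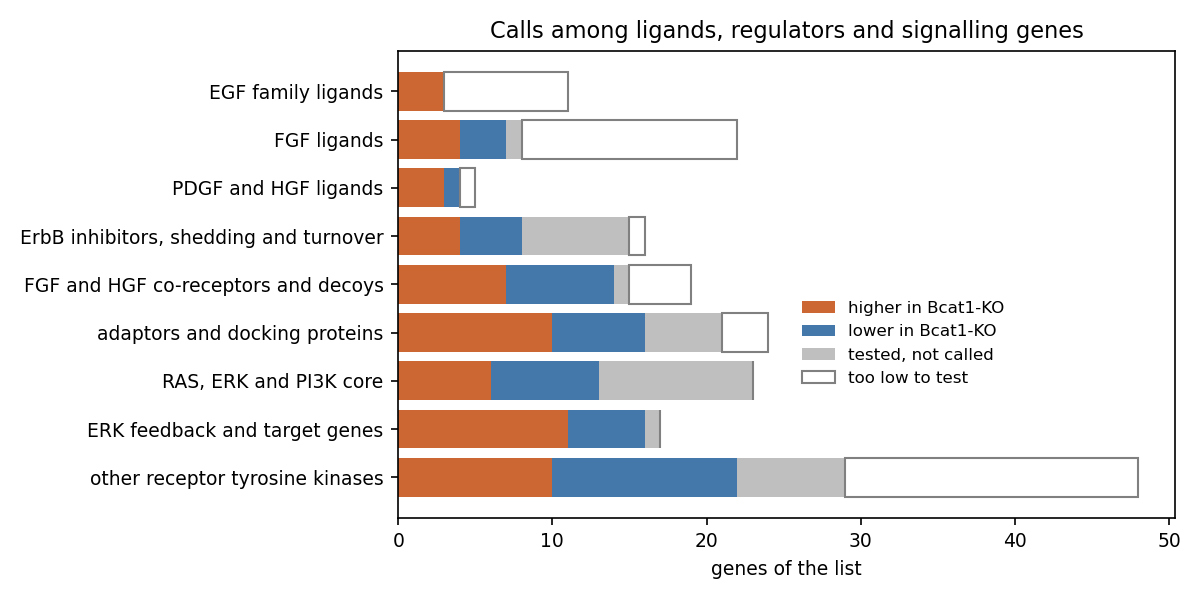
Number of genes in each of 9 lists of ligands, regulators, signalling genes and other receptor tyrosine kinases that were higher (orange) or lower (blue) in Bcat1-KO, tested but not called (grey) or too low to test (white). Most EGF and FGF ligand genes were too low to test, and all 23 genes of the RAS, ERK and PI3K core were tested.

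The other receptor tyrosine kinases give the setting for these 10. Of 48, 29 were tested, with 10 higher, 12 lower and a median of -0.13, against 32.0% higher and 30.3% lower over all tested genes. Ddr2, a collagen receptor, was the most abundant per length and rose from 711 ± 23.05 to 910.1 ± 102 CPM, and Ddr1 had 199 ± 0.967 CPM in control cells and 173 ± 25.04 CPM in knockout cells and did not pass (edgeR adjusted p = 0.0682). In both groups Ddr2 exceeded Fgfr1 per length, at 98.2 against 45.9 RPKM in the knockout and 76.7 against 54.9 RPKM in the control. The neurotrophin receptor Ntrk2 had 3 counts over the controls and 3560 over the knockouts, a ratio of 1002 with an exact 95% interval of 343 to 4863. Its relative Ntrk3 rose from 0.615 ± 0.226 to 14.8 ± 1.92 CPM. Epha3 rose from 0.155 ± 0.135 to 3.24 ± 0.251 CPM. Ephb4, Epha2, Tyro3 and Ptk7 fell, Ephb4 from 153 ± 1.85 to 55.0 ± 2.07 CPM and Tyro3 from 143 ± 7.02 to 96.2 ± 10.3 CPM.

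Other marker lists moved beside the receptors, and their counts are read against 32.0% higher and 30.3% lower over all tested genes. Of 8 astrocyte and radial glia markers 7 were tested, 6 higher and 0 lower, with a summed level of 1313 to 1340.1 CPM in knockout cells and 372 to 399 CPM in control cells. Among these, Fabp7 rose from 6.26 ± 1.10 to 188 ± 3.54 CPM and Slc1a3 from 247 ± 12.3 to 961 ± 15.0 CPM. Of 8 myelin genes 3 were tested, 2 higher and 0 lower, and Mog and Mag were at 0 in all libraries. Of 6 neuronal markers 4 were tested, 2 higher and 1 lower, with Stmn2 at 0. Map2 rose from 168 to 391 CPM, and Rbfox3 fell from 33.1 to 0.0719 CPM. Of 5 Schwann cell markers 3 were tested, 2 lower and 0 higher. Of 6 endothelial markers 1 was tested and not called, and 0 of the 6 microglia markers that matched 1 gene each were tested. Their part in the receptor results was not tested.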

How the data were processed

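RNA was measured in 3 Bcat1-KO and 3 control samples of mGB2 with a stranded mRNA library kit, per the labels. The submitters' processing notes list STAR 2.5.3a, featureCounts and mm10. Which gene annotation was used is not given in the sources at hand. The exonic lengths of the 10 receptors equal those of GENCODE M21. The deposited read counts are raw reads per gene, and those on the reverse strand were used, which held 96.4% to 96.5% of stranded reads. The authors' deposited TPM values served for an alternative.

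edgeR 4.0.16 kept 14020 of 49585 genes with its expression filter, scaled by TMM and compared knockout with control by its quasi-likelihood test with no covariate. P-values were adjusted over all tested genes by the Benjamini-Hochberg method, with a threshold of 0.05. CPM and RPKM use the TMM-scaled library sizes. The common biological coefficient of variation was 8.26%. The test was checked on simulated counts with far fewer changed genes than here, so that check does not cover change this widespread. Promoters came from RefSeq (GRCm38.p6), where 7 of the 10 receptors had an entry.

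The receptors and lists were chosen with earlier results of these data known. In each of the 9 lists of ligands, regulators, signalling genes and other receptor kinases the text names up to 3 genes with the highest mean RPKM and for each direction up to 3 that passed and changed most, given a mean log2 CPM of 0 or more. Neighbouring genes, genes at or near 0 counts and examples from the 9 marker lists are named besides, and 1 list gene that the rule names is not reported here. No sample was left out, and no replicate pair agreed within counting noise. Alternatives used limma 3.58.1 and DESeq2 1.42.0 in R 4.3.3, and Python 3.11.15.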

Additional observations from a re-analysis of the deposited data

How the results depend on the processing

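The counts of receptors were 2 higher and 4 lower, and over the 17 alternatives they ranged from 1 to 2 and from 3 to 6. Against a 1.5-fold threshold 1 receptor was higher, and 1564 genes were higher and 1481 lower over all genes. Erbb2, Erbb4, Fgfr2 and Pdgfrb kept their direction and their call in all 17 alternatives, and Fgfr1 and Fgfr3 in all but the 1.5-fold test. In 1 of these alternatives no call could be lost: subtracting the median of the surrounding genes keeps each p by construction. It left Fgfr1 at -0.04 (SE 0.07) and Fgfr3 at 0.03 (SE 0.11), so it says nothing about their calls. On the log2(TPM + 1) scale the changes were smaller, at 0.60 for Erbb4 and -1.67 for Pdgfrb, since the pseudocount of 1 dominates low levels. Egfr passed with upper-quartile scaling (edgeR adjusted p = 0.0493), with no filter on low counts (0.00670), with a replicate block (0.0279) and without Bcat1-KO replicate 3. The log2 fold change of Pdgfra changed sign with TPM (0.038), with unstranded counts (0.00016) and after subtracting the median of the 51 surrounding genes (0.021), and ranged from -0.061 to 0.029 when leaving out 1 library. Leaving out each replicate gave 2 receptors higher and 4 to 6 lower, and over all genes 3871 to 4589 higher and 3846 to 4741 lower.

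Same-numbered libraries had correlations of -0.037, -0.112 and 0.255 between their deviations from the group means. Differently numbered ones had -0.18 to 0.229. With 3 libraries per group this cannot show whether replicate numbers pair the samples. With a replicate block 2 receptors were higher and 5 lower, and 4448 genes were higher and 4214 lower. The shares of Fgfr1 and Egfr were the same from the deposited TPM, as both use the same counts and lengths. The list counts, recomputed as an alternative added after seeing the data, stayed within 1.5 times in 285 of 306 cases. Most exceptions came from the 1.5-fold threshold. Depth limits Met and Erbb3, which had 24 and 51 counts in all libraries together.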
